A study of Mus musculus with 12 samples.

Results

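A set of 43 genes of the extracellular matrix and its remodelling was followed in differentiated mouse neurospheres: collagens, basement membrane proteins, adhesive and matricellular glycoproteins, elastic fibre proteins, proteoglycans, matrix proteases with their inhibitors, and collagen cross-linking enzymes with a collagen chaperone. Members were found by matching gene symbols and RefSeq identifiers to the array probes. All 43 genes had a probe, and together they held 58 of the 55681 probes. A probe counted as expressed where 1 condition's channel exceeded background clearly on 3 or more of a comparison's 4 arrays, and such a probe was found for 42 of the 43 genes (52 of 29361 expressed probes); Lama4, a laminin chain of vessel basement membranes, had none. Each gene was described by its brightest expressed probe.

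Neurospheres, free-floating aggregates grown from neural progenitor cells, were prepared from the telencephalon of C57BL/6 mouse embryos on embryonic day 13, grown for 5 days per the labels, and differentiated for 7 days without growth factors on plastic coated with poly-L-lysine and laminin. WT neurospheres came from wild-type embryos. APP_WT neurospheres came from APPswe/PSEN1dE9 embryos (line 85), whose 2 transgenes, a mutant amyloid precursor protein and a mutant presenilin-1, are driven by the mouse prion protein promoter and directed to neurons of the central nervous system, and received no drug. BK_APP and HOE_APP neurospheres carried the same transgenes and received 1 µM bradykinin (BK), an inflammatory peptide, or 1 µM HOE-140, an antagonist of the kinin B2 receptor, on days 0, 3 and 6 of differentiation. Each of the 3 comparisons, APP_WT with WT, BK_APP with APP_WT and HOE_APP with APP_WT, rested on 4 2-color arrays with dyes swapped between arrays 1 and 2 and arrays 3 and 4, and the methods describe the 4 replicates as independent biological ones. The labels name both channels of the HOE_APP arrays alike, so the sign of that comparison, taken from the first channel's label, the titles and the swapped layout, is likely only. The difference between arrays 1 and 2, and that between arrays 3 and 4, in the channel so read as APP_WT correlated with r of 0.364 and 0.611 with the APP_WT channels of the WT arrays, and with 0.513 and 0.525 with those of the BK_APP arrays. The channel read as HOE_APP gave 0.232 and 0.378, and 0.328 and 0.315, the lower values in each case.

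The median green signal of an array lay between 63 and 94.5 scanner units and the red between 89.5 and 117.5, and between 51.2% and 60.3% of spots were well above background. Log2 ratios of arrays within APP_WT versus WT correlated with r from 0.243 to 0.608 over all expressed probes. In the treated comparisons r was 0.244 to 0.426 between arrays of one dye orientation and −0.323 to −0.114 between arrays of opposite orientation. The 4 arrays with WT were on one slide and the 8 with treated neurospheres on another; slide and comparison cannot be told apart, and both channels of a ratio shared an array. No spot of a member was saturated.

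The extracellular matrix is the network of secreted proteins and sugars around cells. Its sheet-like form, the basement membrane, is built from laminins and type IV collagen tied together by nidogens and perlecan, and in the brain it wraps blood vessels and underlies the pial surface. The brain parenchyma holds little fibrillar collagen and is rich in lecticans, proteoglycans such as versican, brevican and neurocan, with tenascins. Matrix metalloproteinases (MMPs) cut matrix proteins, and tissue inhibitors of metalloproteinases (TIMPs) restrain them.

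Of the 43 members, 31 had a promoter window in the RefSeq table for GRCm38.p6 (37 windows, each from 250 bases before to 50 bases after an annotated start). The windows of 4 members whose signal was higher in APP_WT are shown. Col4a1 and Col4a2 encode the common chains of type IV collagen and lie head to head, with annotated starts 21 bases apart. Their windows, chr8:11312777-11313076 on the minus strand and chr8:11312555-11312854 on the plus strand, share 78 bases, which are in capitals and read as each other's reverse complement. In the window of Col6a1 (type VI collagen, chr10:76725995-76726294, minus strand) the capitals mark a match to the AP-1 motif TGANTCA that begins 90 bases before the start. In that of Timp1 (chrX:20869916-20870215, plus strand) they mark a GC box, GGGCGG on either strand, that begins 8 bases before the start.
Col4a1: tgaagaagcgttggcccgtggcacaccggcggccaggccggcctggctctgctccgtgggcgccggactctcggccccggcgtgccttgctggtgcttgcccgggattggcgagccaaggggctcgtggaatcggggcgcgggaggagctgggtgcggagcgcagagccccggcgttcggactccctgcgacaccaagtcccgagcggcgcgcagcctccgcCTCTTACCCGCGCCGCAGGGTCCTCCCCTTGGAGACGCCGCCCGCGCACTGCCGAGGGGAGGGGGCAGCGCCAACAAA
Col4a2: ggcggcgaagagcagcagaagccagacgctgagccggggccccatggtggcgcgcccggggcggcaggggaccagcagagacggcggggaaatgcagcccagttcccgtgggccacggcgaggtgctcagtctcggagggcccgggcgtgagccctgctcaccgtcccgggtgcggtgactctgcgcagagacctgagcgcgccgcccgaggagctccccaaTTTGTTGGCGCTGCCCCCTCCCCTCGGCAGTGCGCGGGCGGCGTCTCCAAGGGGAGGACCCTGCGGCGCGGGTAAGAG
Col6a1: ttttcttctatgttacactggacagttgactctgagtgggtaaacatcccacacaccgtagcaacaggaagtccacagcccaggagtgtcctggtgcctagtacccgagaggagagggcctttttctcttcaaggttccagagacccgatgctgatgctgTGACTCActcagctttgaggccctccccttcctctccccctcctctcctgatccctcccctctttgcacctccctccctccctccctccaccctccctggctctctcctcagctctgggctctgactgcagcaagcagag
Timp1: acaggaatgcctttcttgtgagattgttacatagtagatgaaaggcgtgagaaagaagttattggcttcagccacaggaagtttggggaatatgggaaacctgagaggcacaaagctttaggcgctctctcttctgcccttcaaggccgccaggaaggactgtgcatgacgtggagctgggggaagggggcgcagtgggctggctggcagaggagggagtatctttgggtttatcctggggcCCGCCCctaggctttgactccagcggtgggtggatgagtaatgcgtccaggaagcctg

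Motifs were searched on both strands by their letters alone. A GC box was present in 27 of the 37 member windows (73%), belonging to 25 genes, and in 35.7% of all 32851 windows in the table, which include windows of genes that make no protein. TATAAA was in 6 member windows (16.2%) against 13.6% of all, and TGANTCA in 1, that of Col6a1 (2.7%), against 7.81%. The STAT motif TTCNNNGAA was in 1, that of Lamb2 (2.7%), against 8.3%, and the interferon-stimulated response element in 2, those of Fbn1 and Fbln5 (5.41%), against 3.44%. CANNTG, the E-box, was in 21 (56.8%) against 72.3% of all, and the SMAD motif GTCTAGAC, held by 0.213% of all windows, was in none of the 37. These are matches of letters, not binding sites.

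Among matrix genes, higher signal in transgenic than in wild-type neurospheres was more frequent than lower signal. In APP_WT versus WT, 23 of 42 members passed the limma test (54.8%, Benjamini-Hochberg adjusted p below 0.05 over all expressed probes), 17 with higher and 6 with lower signal in APP_WT. The background was 18.5% of all expressed probes, 11.6% higher and 7% lower; with 1 probe for each of 14330 named genes it was 25%, 17% higher and 8.03% lower. Fitted values ran from −0.62 (Lum, from dim signal, and −1.74 with the processed signals of the scanner software) to 0.76 (Timp1) on the log2 scale. Their median was 0.17, beside 0.01 over all named genes, and the member median was −0.01, 0.24, 0.16 and 0.29 on arrays 1 to 4. The count called was 24, 15, 18 and 16 without arrays 1, 2, 3 and 4, and 14 when each comparison was fitted alone. Without array 4 the count of higher members was 11, without array 2 or array 3 that of lower members was 3, and without array 2 the median was 0.04. With those processed signals 14 were higher and 9 lower. With the replicate numbers as a block, entered with the opposite sign in this comparison because APP_WT is the numerator here and the denominator in the others, 19 were higher and 10 lower, beside 28.1% of all probes (16.3% higher, 11.9% lower). The 23 kept their calls there, and the 6 added were Col3a1, Col5a2, Col6a2, Fbln1, Bcan and Loxl1, at adjusted p = 0.0203, 0.0165, 0.0203, 0.0415, 0.00302 and 0.015 by limma. Signs were alike on 4 of 4 arrays for 20 of 42 members (47.6%) and for 26.9% of all expressed probes. Without adjustment 28 members (66.7%) had a limma p below 0.05, beside 31.8% of probes and 39% of named genes with 1 probe each. The separate rule of the methods, p of at most 0.05 by both SAM and rank products without adjustment, called 15 members, 10 higher and 5 lower. It called 9.3% of all probes and 1858 of the 14330 named genes with 1 probe each. Of the 15 members 14 were among the 23 and the other was Bcan.

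**Figure D1:**
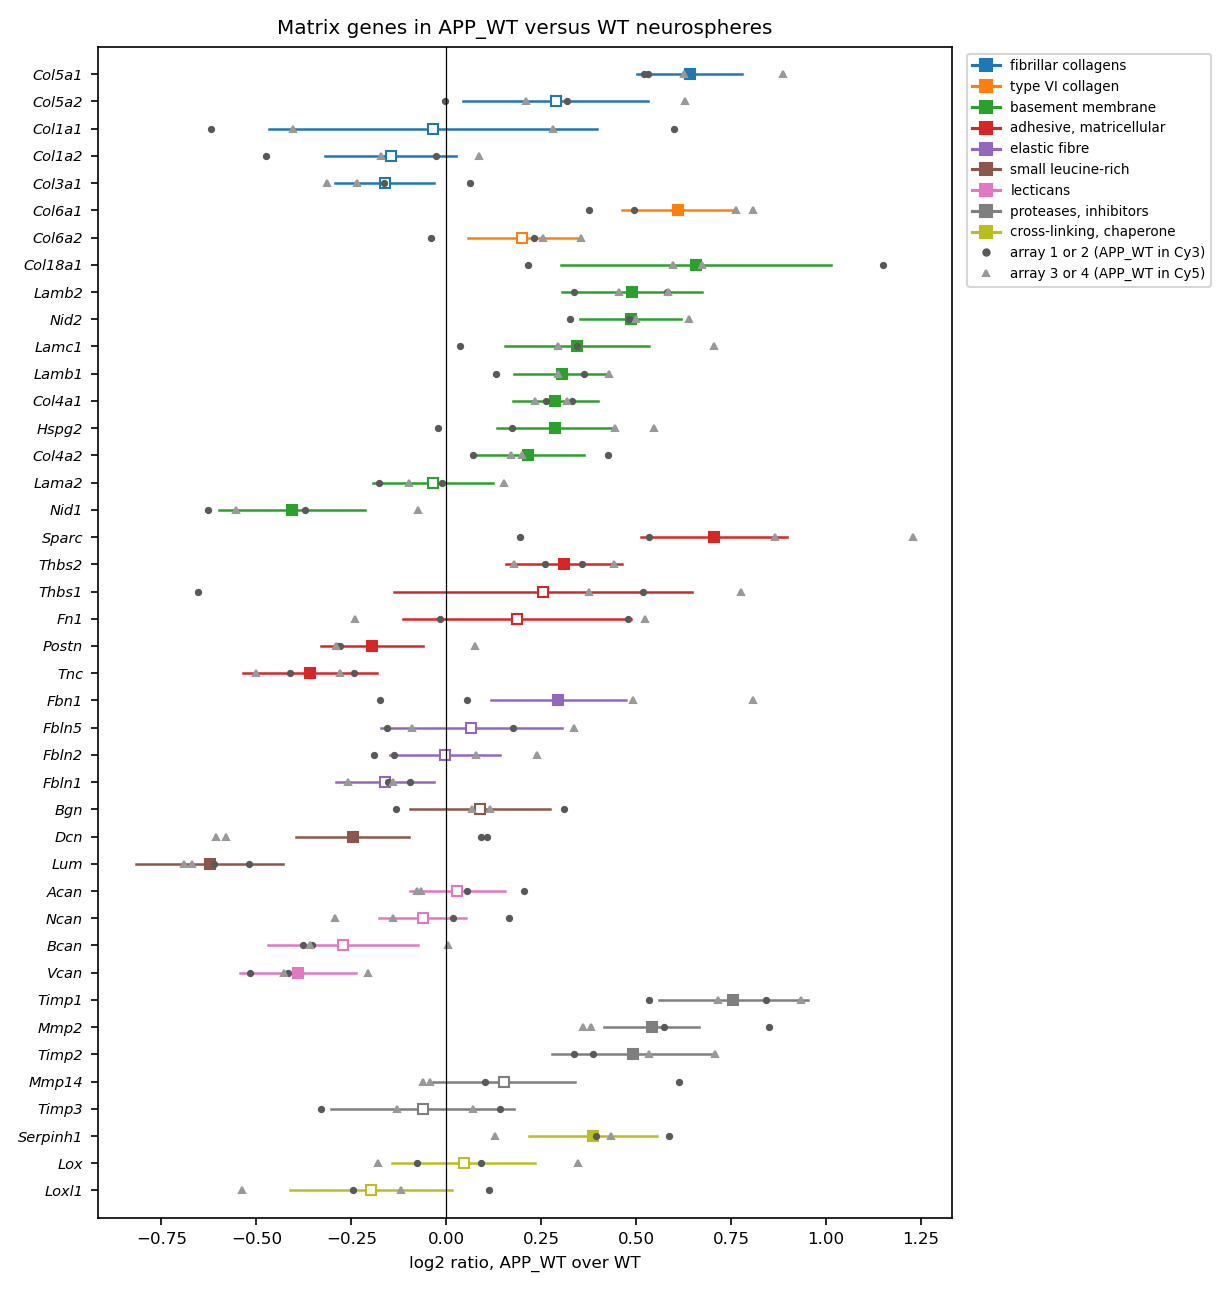
Log2 ratio of APP_WT over WT for the 42 expressed matrix genes, grouped by role. Squares are fitted means with 95% confidence intervals, filled where the adjusted p was below 0.05; grey circles are arrays 1 and 2 and triangles arrays 3 and 4, which carry the opposite dyes. Most filled squares of the basement membrane group lie right of 0, with Nid1 at −0.41 as the exception.

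Basement membrane genes were the group with most members called: 8 of 10 were higher and 1 was lower. Lama2 (a laminin alpha chain, −0.03) did not pass. Of all named genes 17% were higher and 8.03% lower. The rule of SAM and rank products called 4 of the 10: Col18a1, Lamb2 and Nid2 were higher and Nid1 lower. Col4a1 was not called by that rule. Col4a1 gave log2 ratios of 0.26, 0.33, 0.23 and 0.32 on arrays 1 to 4. In log2 signal the WT channels read 7.76, 7.80, 7.95 and 8.09 and the APP_WT channels 8.02, 8.13, 8.18 and 8.41, so that the conditions overlapped across arrays while APP_WT was the higher within each array. The fitted difference was 0.29 ± 0.05 (SE, n = 4), 1.22-fold, with a limma adjusted p of 0.00268. Its neighbour Col4a2 read 0.07, 0.43, 0.17 and 0.20, with a mean of 0.22 (adjusted p = 0.0457), a call that 10 of 15 alternative settings lost, among them the removal of array 2 (0.13, adjusted p = 0.28), array 3 (0.22, adjusted p = 0.121) or array 4 (0.21, adjusted p = 0.138), and the processed signals (0.06, adjusted p = 0.421).

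The 2 nidogens, which link laminin to type IV collagen, went opposite ways. Nid2 read 0.33, 0.48, 0.50 and 0.64 in log2 ratio, with WT channels between 7.87 and 7.99 and APP_WT channels between 8.28 and 8.51, which did not overlap (0.49 ± 0.06, limma adjusted p = 0.000278). Nid1 read −0.63, −0.37, −0.55 and −0.07, with WT channels at 8.29 to 8.46 and APP_WT channels at 7.74 to 8.22, again without overlap. Its mean was −0.41 ± 0.09 (limma adjusted p = 0.00808), and a dimmer second probe of Nid1 gave −0.23 without passing (adjusted p = 0.232). Without array 3 the first probe had −0.29 (adjusted p = 0.0629), and with the processed signals or the deposited ratios −0.75.

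Laminins are heterotrimers of an alpha, a beta and a gamma chain. Lamb2, a beta chain, gave ratios of 0.34, 0.58, 0.58 and 0.45, with all WT channels (9.60 to 9.73) below all APP_WT channels (10.05 to 10.31) and a mean of 0.49 (adjusted p = 0.00221). The other beta chain measured, Lamb1, had 0.30 (adjusted p = 0.00362), and the gamma chain Lamc1 had 0.34 with an array range of 0.04 to 0.71 (adjusted p = 0.0174), which became 0.27 without array 2 (adjusted p = 0.106) and 0.24 without array 4 (adjusted p = 0.121), and 0.22 with median centring (adjusted p = 0.111). Col18a1, the collagen that yields endostatin, read 0.21, 1.15, 0.60 and 0.67, an uneven rise with a mean of 0.66 (adjusted p = 0.0161) that a second probe repeated at 0.55 (adjusted p = 0.0146). Its call was lost without array 2 (0.42, adjusted p = 0.102), array 3 (0.68, adjusted p = 0.0611) or array 4 (0.64, adjusted p = 0.0747). Hspg2 encodes perlecan, the heparan sulphate proteoglycan of basement membranes, and read −0.02, 0.17, 0.44 and 0.55, higher on the arrays with APP_WT in Cy5 (mean 0.29, adjusted p = 0.0158; 0.24 without array 2, adjusted p = 0.0918, and 0.26 without array 4, adjusted p = 0.0835; 0.18 with the processed signals, adjusted p = 0.117).

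Of the 5 fibrillar collagens, which form the tensile fibres of connective tissue, 1 was higher (20%), near the 17% of all named genes. Col5a1, a chain that limits fibril diameter, gave 0.52, 0.53, 0.63 and 0.89 in log2 ratio, with WT channels at 7.20 to 7.39 and APP_WT channels at 7.72 to 8.28. These sets did not overlap, and the mean of 0.64 ± 0.06 had the lowest limma adjusted p among the members (5.72e-05). Its partner chain Col5a2 had 0.29 (adjusted p = 0.0972). Col1a1 and Col1a2, the chains of type I collagen, had −0.04 and −0.15, and Col3a1 had −0.16 (adjusted p = 0.0843). Arrays differed most for Col1a1, with −0.62, 0.60, −0.40 and 0.28, so its 95% confidence interval ran from −0.47 to 0.40.

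Type VI collagen forms beaded microfibrils near basement membranes. Col6a1 read 0.37, 0.49, 0.76 and 0.81, all above 0, with a mean of 0.61 ± 0.07 (limma adjusted p = 0.000123). Col6a2 read −0.04, 0.23, 0.26 and 0.35, a mean of 0.20 that missed the threshold (adjusted p = 0.057), and was well above background on 3 APP_WT and 2 WT channels.

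Among adhesive and matricellular genes, 2 of 6 were higher and 2 lower (33.3% each), beside 17% and 8.03% of all named genes. Sparc, a collagen-binding glycoprotein secreted by astrocytes and vessels, had ratios of 0.19, 0.53, 0.87 and 1.23, smaller on the 2 arrays with APP_WT in Cy3 than on the others. The mean was 0.71 ± 0.09 (limma adjusted p = 0.000265), and its second probe read 0.32, 0.67, 0.39 and 0.88 (adjusted p = 0.00116). Thbs2, a thrombospondin that astrocytes secrete and that promotes synapse formation, was higher by 0.31 (adjusted p = 0.0105) from dim signal, well above background on 3 APP_WT and 1 WT channels, and had 0.24 without array 4 (adjusted p = 0.0783) and 0.99 with the processed signals or the deposited ratios. Thbs1 read −0.65, 0.52, 0.38 and 0.78, and Fn1, fibronectin, −0.02, 0.48, 0.52 and −0.24, and neither passed (adjusted p = 0.361 and 0.384).

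Tnc, tenascin-C, a glycoprotein of neural stem cell niches and reactive astrocytes, was lower on all 4 arrays, by −0.24, −0.41, −0.50 and −0.28 (mean −0.36, adjusted p = 0.00999), and did not pass without array 2 (−0.32, adjusted p = 0.056) or array 3 (−0.30, adjusted p = 0.0717). With the processed signals it had −0.89. A second Tnc probe was at −0.25 (adjusted p = 0.0733). Postn, periostin, had the weakest call of all, at −0.20 (adjusted p = 0.0483), with −0.29, −0.28, −0.29 and 0.08 on the arrays, and was well above background on 1 APP_WT and 2 WT channels. It lost its call without array 1 (−0.19, adjusted p = 0.114), array 2 (−0.20, adjusted p = 0.128) or array 3 (−0.10, adjusted p = 0.289), and had −1.08 with the processed signals.

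Of the small leucine-rich proteoglycans 2 of 3 were lower, and of the lecticans 1 of 4, with none higher in either group. Of all named genes 8.03% were lower. Lum, lumican, a small leucine-rich proteoglycan that binds fibrillar collagen, read −0.61, −0.52, −0.69 and −0.67. WT channels read 7.06 to 7.50 and APP_WT channels 6.49 to 6.84 in log2 signal, without overlap, and the mean was −0.62 ± 0.09 (limma adjusted p = 0.000632). Lum was well above background on 4 WT channels and on 1 APP_WT channel, and its size depended on the background treatment, at −1.74 with the processed signals. Dcn, decorin, of the same family, split by dye orientation, at 0.11, 0.09, −0.58 and −0.61, and the mean of −0.25 (adjusted p = 0.0274) rested on the last 2 arrays. Removing any array left Dcn at −0.25 to −0.24 with adjusted p from 0.0657 to 0.0996.

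Vcan, versican, the lectican of immature brain matrix, read −0.42, −0.52, −0.21 and −0.43, below 0 throughout (mean −0.39 ± 0.07, limma adjusted p = 0.00271). A dimmer Vcan probe had mixed signs and −0.25 (adjusted p = 0.139). Bcan, brevican, of perineuronal nets, read −0.38, −0.35, 0.00 and −0.36 (mean −0.27, adjusted p = 0.0591) and its other expressed probe went the opposite way at 0.20 (adjusted p = 0.0608), so no direction is given for it. Ncan, neurocan, had −0.06 and Acan, aggrecan, 0.03. The biglycan gene Bgn had 0.09.

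Among protease and inhibitor genes 3 of 5 were higher (60%), beside 17% of all named genes. Timp1 had ratios of 0.84, 0.53, 0.72 and 0.93. WT channels lay at 7.21, 7.03, 7.13 and 7.50 in log2 signal and APP_WT channels at 8.05, 7.56, 7.84 and 8.43, and the lowest APP_WT value was above the highest WT value. The mean was 0.76 ± 0.09 (SE, n = 4), 1.69-fold, with a limma adjusted p of 0.000188. Timp2, the inhibitor that also takes part in pro-MMP2 activation, had 0.49 (adjusted p = 0.00584), with 0.72 at a second probe (adjusted p = 1.4e-05), and 0.28 with median centring (adjusted p = 0.0571). Mmp2, gelatinase A, which degrades type IV collagen, read 0.85, 0.57, 0.36 and 0.38, with a mean of 0.54 (adjusted p = 8.5e-05) and channels of 7.21 to 7.58 in WT against 7.78 to 8.30 in APP_WT, which did not overlap. Timp3 (−0.06) and Mmp14 (0.15), the membrane-bound activator of MMP2, did not pass.

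**Figure D2:**
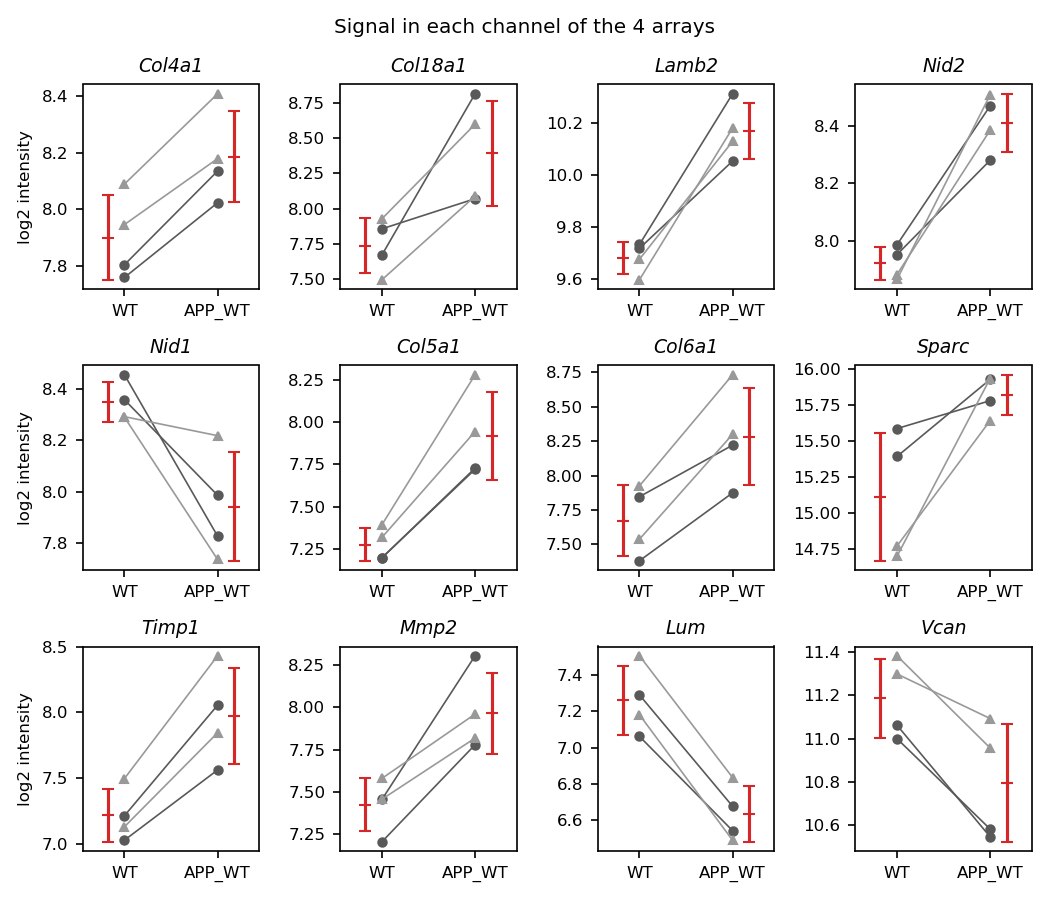
Log2 intensity of 12 matrix genes in the WT and APP_WT channel of each array of APP_WT versus WT. Lines join the channels of 1 array (circles, APP_WT in Cy3; triangles, APP_WT in Cy5), red marks are mean ± SD over 4 arrays, and each panel has its own axis, since probes cannot be compared in level. Lines slope up for Timp1, Mmp2, Col5a1 and Nid2, and down for Nid1, Lum and Vcan, on all 4 arrays.

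Of the remaining genes, Serpinh1, the collagen chaperone Hsp47, was higher by 0.39 (adjusted p = 0.00526), with 0.39, 0.59, 0.13 and 0.43 on the arrays, and had 0.22 with median centring (adjusted p = 0.114). The cross-linking enzymes Lox (0.05) and Loxl1 (−0.20) did not pass. Lox was well above background on 1 channel of each condition, and a second Loxl1 probe had the opposite sign (0.18). Fbn1, fibrillin-1 of elastic microfibrils, read −0.17, 0.05, 0.49 and 0.81, a difference by dye orientation under a mean of 0.30 (adjusted p = 0.0264) that became 0.24 without array 2 (adjusted p = 0.138) and 0.22 without array 4 (adjusted p = 0.157). The fibulins Fbln1 (−0.16), Fbln2 (0.00) and Fbln5 (0.07) did not pass. Under each of the limma settings that tested them, 10 of the 23 called members kept their call: Col5a1, Col6a1, Col4a1, Lamb2, Nid2, Sparc, Timp1, Mmp2, Lum and Vcan. Lum, dim in APP_WT, was tested in 13 settings and the others of these in 15. SAM with rank products did not call Col4a1. All 23 kept their sign, which settings that change only the spread, such as fitting each comparison alone, could not alter.

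Matrix genes outside the 43 were looked at through 7 lists, beside 17% higher and 8.03% lower among all named genes. Of 21 expressed other collagens 8 were higher and 2 lower, with Col4a6, another type IV chain, at 0.70 and Col2a1, of cartilage, at −0.72. Other glycoproteins gave 21 higher and 3 lower of 55, from Tgfbi (1.41), an integrin-binding protein induced by TGF-beta, to Mfge8 (−0.42), a bridge in phagocytosis. Other proteoglycans gave 11 higher and 1 lower of 22, with Srgn, the granule proteoglycan of blood-derived cells, at 0.99 and Gpc2, a glypican of growing axons, at −0.60. Other proteases and inhibitors gave 14 higher and 4 lower of 38, with Ctss, a lysosomal cysteine protease of myeloid cells, at 2.52 and Adamts19 at −0.46. Ctss was well above background on 4 APP_WT channels and 1 WT channel, so its value rests on dim WT signal. In collagen biosynthesis 10 were higher and 1 lower of 26, Tgm2, a transglutaminase, at 1.38 and Pcolce2, an enhancer of procollagen processing, at −0.28. Matrix receptors gave 7 higher and none lower of 19, with Ddr2, a collagen receptor kinase, at 0.85. In the TGF-beta axis 4 were higher and 3 lower of 15, Tgfbr2, a TGF-beta receptor, at 0.93 and Fst, follistatin, at −0.40. All of the genes named here passed the limma test with one sign on 4 arrays (largest adjusted p = 0.0124), and list medians lay between 0.09 and 0.22.

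Markers of cell types moved in the same comparison, in which 17% of all named genes were higher and 8.03% lower. Of 14 expressed microglial markers 13 were higher, with a median of 1.27 and an array median of 1.29 to 1.37. Their summed signal was 9931 to 12092 in WT and 14187 to 18286 in APP_WT channels. P2ry12 and Spi1 were not expressed, and Laptm5 was well above background on none of the 4 WT channels and on all APP_WT channels. Of the 14 markers 6 were well above background on all 4 WT channels, so the other ratios rest partly on dim WT signal. Of 12 astrocyte markers 8 were higher (median 0.28, Gfap at 0.69 and Aqp4 at 0.73), with a summed signal of 104085 to 127226 in WT and 142226 to 157293 in APP_WT.

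Signals of vessel and connective tissue cells, which make much basement membrane, were less complete. Of 12 mural markers 8 were expressed, none was higher and Pdgfrb was lower at −0.45 (list median 0.12; summed signal 18072 to 25535 in WT and 19800 to 36475 in APP_WT), and Rgs5, Kcnj8, Abcc9 and Des were not expressed. Of 12 endothelial markers 6 were expressed and 1, Flt1, was higher at 0.40, well above background on 3 APP_WT and 0 WT channels. Summed signals of the list were 2425 to 3436 in WT and 2876 to 3625 in APP_WT. Cdh5, Cldn5, Tie1, Emcn, Esam and Erg were not expressed. Of 17 fibroblast and meningeal markers 9 were expressed and 3 were higher (list median 0.07; summed signal 3984 to 4458 in WT and 4950 to 5137 in APP_WT). Of 12 neuronal markers 3 were higher and 5 lower (median −0.07; 107338 to 124154 in WT and 97243 to 111968 in APP_WT), and of 11 expressed oligodendrocyte markers 1 was lower (median 0.07; 75849 to 101056 in WT and 88067 to 104796 in APP_WT). The part of these shifts in the matrix result was not tested, and in bulk RNA fewer cells of a type and less RNA per cell cannot be told apart. App, the mouse counterpart of a transgene, had 0.12 (limma adjusted p = 0.0925). Prnp, whose promoter drives the transgenes, had 0.75 with 0.59, 0.59, 1.57 and 0.25 on the arrays (limma adjusted p = 0.00581). Whether these probes also read transgene RNA was not tested.

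**Figure D3:**
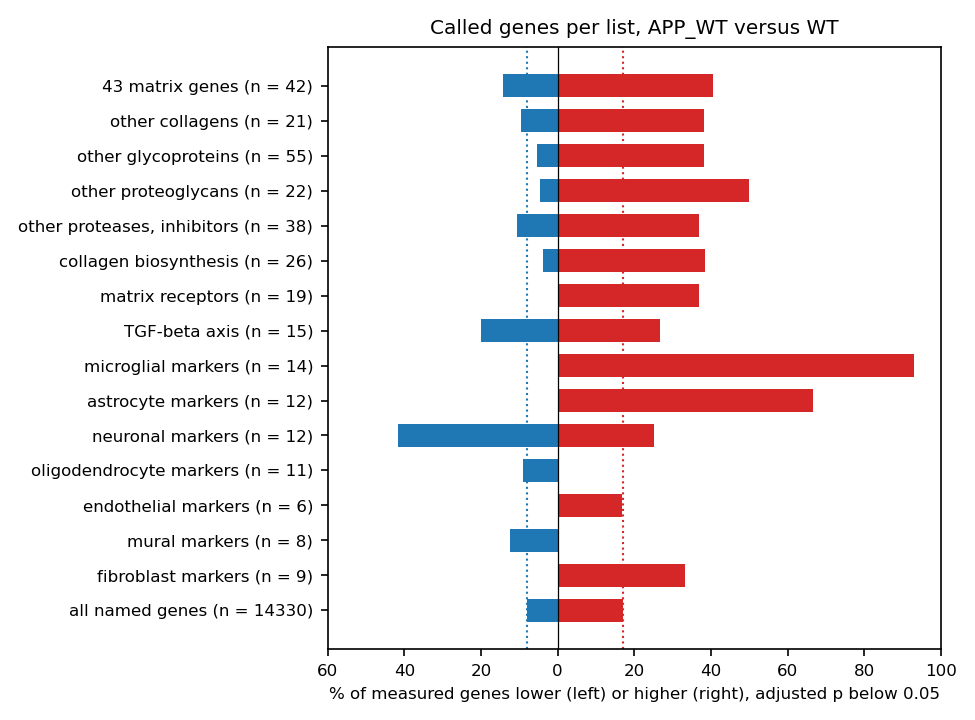
Percent of the expressed genes of each list that were higher (right, red) or lower (left, blue) in APP_WT than in WT at a limma adjusted p below 0.05, with dotted lines at the values for all named genes (17% and 8.03%). The 43 matrix genes reach 40.5% higher and 14.3% lower, and microglial markers 92.9% higher.

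The treated neurospheres were compared with APP_WT to see whether kinin signalling moved these genes. No member passed the limma test in BK_APP versus APP_WT, nor did any probe (0% of 29361; smallest adjusted p among members 0.967, and 0.296 with the turned block, under which 7 members had an unadjusted p below 0.05). At an unadjusted p below 0.05 there were 2 members, 4.76%, beside 4.47% of all probes, and the rule of SAM and rank products called 3, Nid2, Thbs1 and Mmp14, beside 1.29%. The member median was 0.04, with 0.11, 0.01, 0.04 and −0.05 on the arrays. Nid2 read 0.45, 0.16, 0.27 and 0.14, all above 0, with a mean of 0.25 ± 0.06 (adjusted p = 0.967). Mmp14 read 0.00, −0.22, −0.14 and −0.39 (mean −0.19, adjusted p = 0.967), and Thbs1 0.58, 0.01, 0.50 and 0.13 (mean 0.31). Signs were alike on 4 arrays for 6 of 41 members (14.6%), beside 9.64% of probes. The 95% confidence interval stayed within a 1.5-fold change either way for 41 of 42 members, Thbs1 being the exception. The value of Timp2 (−0.05) lacks array 1, where its spot was left out.

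HOE_APP versus APP_WT gave no call either (0% of all probes; smallest adjusted p among members 0.924 by limma, and 0.207 with the turned block, which called 3 probes in all, 0.0102%, none of a member). An unadjusted p below 0.05 was found for 4 members, 9.52% beside 5.03% of all probes, and SAM with rank products called Fn1 alone, beside 1.67%. With the likely sign, Fn1 read 0.15, −0.17, −0.67 and −0.65, lower mainly on the arrays with HOE_APP in Cy3 (mean −0.33 ± 0.14, adjusted p = 0.924). Col6a1 read −0.07, −0.15, −0.10 and −0.38 (mean −0.18), and Col3a1 −0.07, −0.28, −0.14 and −0.04 (mean −0.13), both below 0 on 4 arrays. Col1a2 read 0.14, −0.10, −0.32 and −0.48 (mean −0.19). All 3 had an adjusted p of 0.924. Signs were alike on 4 arrays for 4 of 41 members (9.76%), beside 10.6% of probes. Intervals stayed within 1.5-fold for 41 of 42 members, all but Fn1, and the value of Col6a2 (0.00) lacks array 4.

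**Figure D4:**
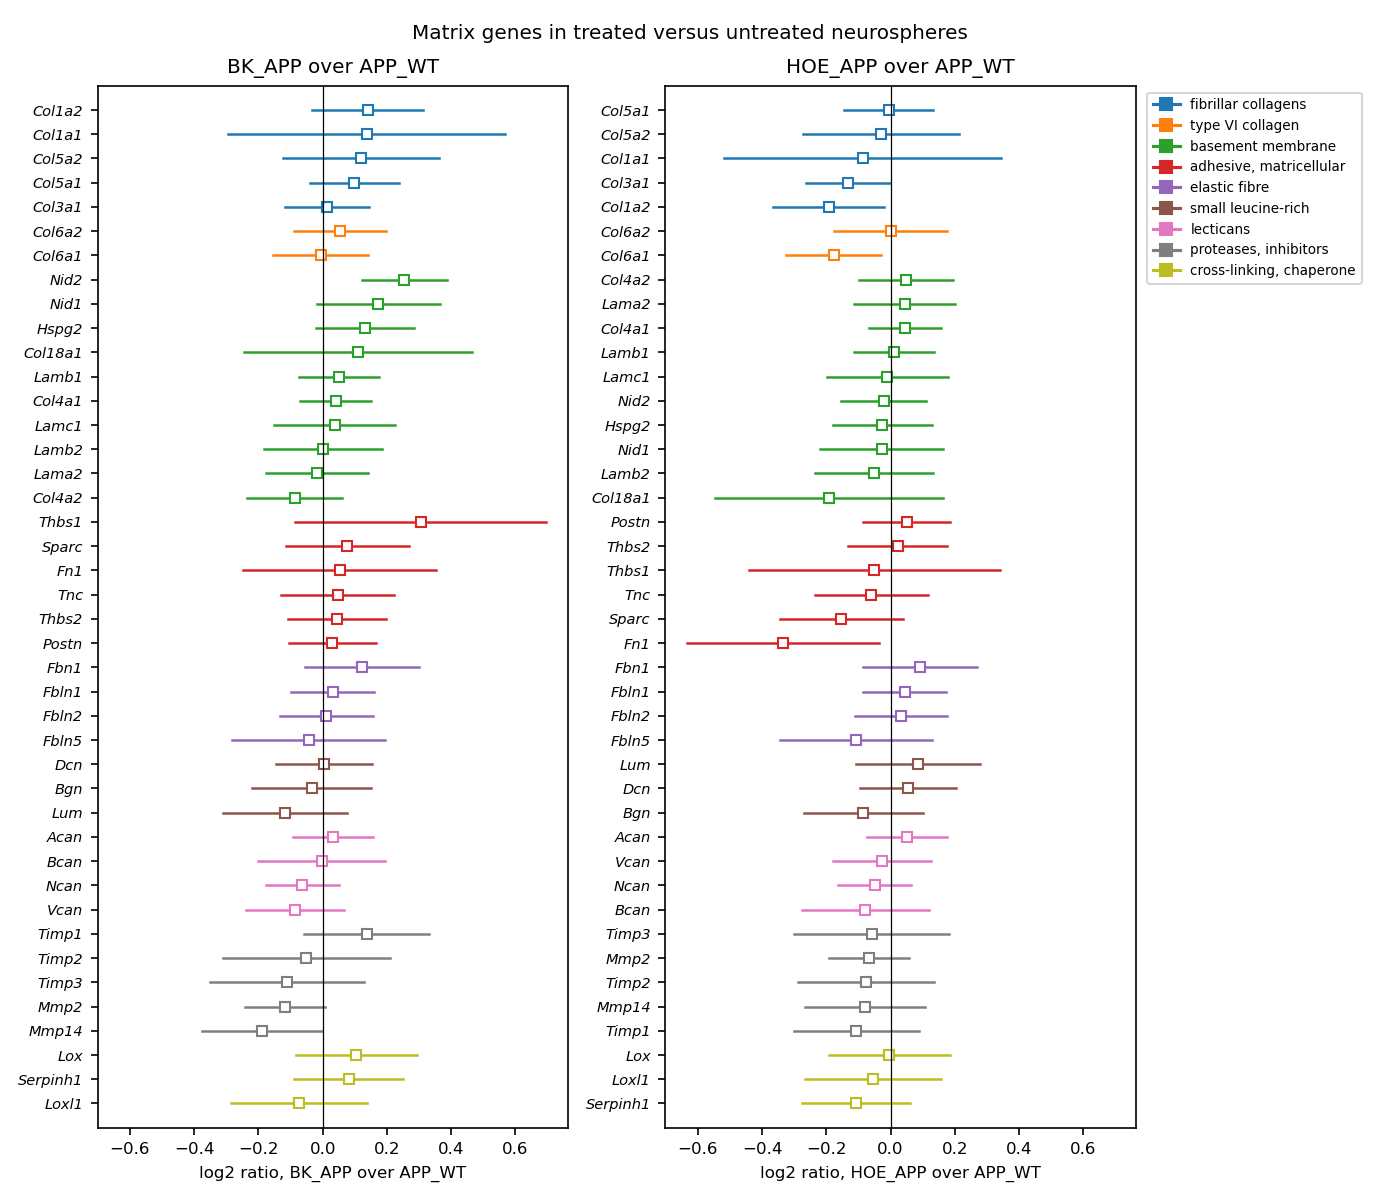
Log2 ratio over APP_WT of the 42 expressed matrix genes in BK_APP (left) and HOE_APP (right), grouped by role and ordered by value within a group, with 95% confidence intervals. All squares are open, since no adjusted p was below 0.05, and means range from −0.19 to 0.31 in BK_APP and from −0.33 to 0.09 in HOE_APP.

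The 23 genes called in APP_WT versus WT had values of −0.12 to 0.25 with BK and of −0.19 to 0.09 with HOE-140. Nid2 had 0.25 and −0.02, Col6a1 −0.01 and −0.18, and Col18a1 0.11 and −0.19. Timp1, 0.76 over WT, had 0.14 with BK and −0.11 with HOE-140. Sparc had 0.08 and −0.15, Col5a1 0.10 and −0.01, Mmp2 −0.12 and −0.07, and Col4a1 0.04 and 0.04. Of the genes lower in APP_WT, Nid1 had 0.17 and −0.03, Lum −0.12 and 0.09, Vcan −0.09 and −0.03, and Tnc 0.05 and −0.06. None of these values passed, and the 3 comparisons share APP_WT as a condition, so their values are given side by side only.

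The difference between both drugs was tested directly as BK_APP minus HOE_APP. No member passed (0% of all probes; adjusted p of 1.0 by limma for all 42, and at least 0.473 with the turned block), and 2 members had an unadjusted p below 0.05, 4.76% beside 2.5% of all probes. These were Nid2 at 0.28 ± 0.09 (SE) and Col1a2 at 0.33 ± 0.11, with 95% confidence intervals of 0.09 to 0.46 and 0.09 to 0.58. The interval of the difference stayed within a 2-fold change for all 42 members and within 1.5-fold for 38, the others being Col1a1, Col18a1, Fn1 and Thbs1.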

How the data were processed

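RNA of neurospheres was hybridised to 12 2-color 60-mer expression arrays, 4 for each of 3 comparisons, with 100 ng of total RNA labelled per channel. The authors deposited the scanner output of Feature Extraction 11.0.1.1 per the file headers, with the median green and red intensity of each spot and its background, not normalized, processed intensities, and log10 ratios; the methods name another version. They also deposited log2 ratios in 1 table, used only as an alternative.

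Intensities were background-corrected (normexp, offset 50) and loess-normalized within arrays (span 0.3) in limma 3.58.1 (R 4.3.3). Control and uneven spots had no weight and spots of a probe were averaged. One limma fit over 12 arrays estimated, per comparison, the mean log2 ratio and a dye effect, so standard errors (6 residual degrees of freedom before moderation) share their spread, and p-values were adjusted over 29361 expressed probes. A probe's mean over dyes can hide a difference by dye orientation, so array values are given. Between comparisons, deviations of same-numbered APP_WT channels from their mean correlated with r of 0.274 to 0.699, every pair above 0.1. Dye orientation is shared too. Same-numbered channels of unlike conditions on different arrays gave r of −0.014 to 0.531, a range that overlaps. Pairing of arrays by number is thus not given by the labels and not settled by these values. The 12-array fit takes arrays as independent, which affects its standard errors and those of BK_APP minus HOE_APP. Precision is limited by the 4 arrays of a comparison.

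Named are all 43 members, the largest rise and fall of each other matrix list among genes called with one sign on 4 arrays, and, under treatment, members with an unadjusted p below 0.05; Thbs1 and the cell type markers with a value (Gfap, Aqp4, Pdgfrb, Flt1) or a detection count (Laptm5) were added after their values were seen. Members and lists were chosen with earlier results of these data known. Alternatives were processed signals, median centring, deposited ratios, no background correction, other filters, no dye term, separate fits, a replicate block, its turned form, chosen after seeing the data, 1 array left out, SAM with rank products (16 sign flips; 100 permutations), the mean of all probes of a gene, and the turned HOE_APP sign. Promoters are RefSeq's on GRCm38.p6; gene coordinates and protein sequences were not used here.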

Additional observations from a re-analysis of the deposited data

Results flagged for a closer look

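Among 124 sets of 4 array values, 4 had 1 array that stood apart from the other 3 by Dixon's criterion, where chance gives about 6.2. Col6a1 in BK_APP versus APP_WT had −0.26 on array 4 and 0.06 to 0.10 on the others. Postn in APP_WT versus WT had 0.076 on array 4 and −0.29 to −0.28 on the others. Bcan in APP_WT versus WT had 0.0041 on array 3 and −0.38 to −0.35 on the others. Mmp14 in HOE_APP versus APP_WT had −0.30 on array 2 and −0.03 to 0.01 on the others.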

How the results depend on the processing

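In APP_WT versus WT the 23 called members kept their sign under each limma alternative, and 10 kept their call under each that could test them. Separate fits, the replicate blocks and the fit without a dye term leave a fitted value unchanged, so they could not change a sign. The count of higher members (17) became 11 with separate fits and 10 with SAM and rank products, and ranged from 11 (without array 4) to 20 when 1 array was left out. That of lower members (6) became 3 with separate fits and ranged from 3 (without array 2 or 3) to 5 when 1 array was left out. The member median (0.17) ranged from 0.04 to 0.27 without 1 array. Calls lost most often were those of Col4a2, Postn, Dcn, Fbn1 and Hspg2. Processed signals and median centring moved the median of all probes to −0.08 and −0.07. Over all probes 5446 calls became 2371 with separate fits. The cause was not tested.

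In the treated comparisons limma called no member under any alternative. SAM and rank products called 2 higher and 1 lower in BK_APP versus APP_WT and 1 lower in HOE_APP versus APP_WT. The member median of BK_APP minus HOE_APP (0.05) became 0.023 with median centring and 0.0072 with the HOE_APP sign turned, and ranged from 0.03 to 0.11 without 1 array. That of HOE_APP versus APP_WT (−0.04) was 0.04 with median centring.

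With the replicate numbers as a block of one sign 16 members were higher and 4 lower in APP_WT versus WT, Col4a2, Dcn and Postn losing their calls. With the turned block, chosen after seeing the data, 19 were higher and 10 lower, 5446 calls over all probes became 8265, and no member was called in a treated comparison or in BK_APP minus HOE_APP. Lum, Postn, Thbs2, Lox, Col6a2 and Acan were well above background on some channels only, which limits their values. The same held for Tnc in both treated comparisons and for Col3a1 in BK_APP versus APP_WT. Deposited ratios could test 37 members and the filter on both channels 34.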
